A study of Rattus norvegicus with 9 samples.

Results

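Immediate early genes are the genes that neurons and other cells switch on within minutes of a stimulus, from transcription factors already present in the cell. Calcium entry and growth factor signalling activate the factors SRF, bound at the CArG box, and CREB, bound at the cyclic AMP response element, and the messengers made are short-lived. In the cortex their level is used as a readout of recent neuronal firing. The 10 genes described are Fos, Junb, Egr1, Egr2, Nr4a1, Arc, Dusp1, Ccn1, Ier2 and Btg2, and every probe that the platform's annotation names for one of them was taken. Btg2 had no probe named for it and was dropped. That left 9 genes with 1 probe each, and 8 of them, all but Nr4a1, were above background on all 9 arrays and entered the tests over 12370 probes.

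The samples were cerebral cortex from 4 male and 5 female Sprague-Dawley rats, an outbred strain, aged 60 days, with 1 Illumina bead array per animal. All 9 animals, of both sexes, had been exposed to 145 cGy of caesium radiation before birth, on gestation day 17, in a model of cortical dysplasia. Unirradiated animals were not analysed here, so no value measures an effect of radiation. Each title also carries a number that the labels do not explain. In rising order of that number, males 1 and 2 and female 1 share the first, males 3 and 4 and females 2 and 3 the second, and females 4 and 5 the third. The labels do not say how long each animal's brain took to reach the preservative or what the animal did before.

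Values are log2 normalised intensities unless another scale is named, and a probe counted as above background on an array when its raw intensity exceeded a bound of 46.6 to 54.1, set from probes that the authors left out of their value table. Median raw intensity ranged from 47.9 to 57.3 over the arrays, and pairs of arrays correlated at 0.979 to 0.993. On the first principal component, which held 33.5% of the variance, male 2, female 1 and female 3 stood apart at 16.1 to 19.0, against -13.1 to -4.53 in the other 6 animals. With the 8 genes left out of the component these 3 animals lay at 15.8 to 19.0. The SD within sex, some r values, the sex difference of Ccn1 and the calls are also given without these 3 animals. The remaining results are not given without them. All 9 genes of cortical glutamatergic neurons that had a named probe were above background on all 9 arrays. Precision is limited by how few arrays there are.

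Between animals the immediate early genes varied more than most genes of the array, and they varied together. Male 3 had the lowest value of all 9 animals in 8 of the 8 tested genes, where it was the lowest animal in 9.14% of all probes tested. Male 2 had the highest value in 5 of 8, against 11.8% of all probes. The mean deviation of the 8 genes from their own means was -0.97 in male 3, -0.41 in male 1, 0.13 in male 4 and 0.82 in male 2. In females it was 0.39, 0.20, 0.53, -0.24 and -0.46 for animals 1 to 5. Male 3 and female 5 were below the gene's mean in 8 of 8 genes, and male 2, female 1 and female 3 above it in 8 of 8. The share of all probes below or above their mean in these animals was not counted. As the 8 genes varied together, such counts are not 8 separate observations. In whole cortex, fewer cells expressing a gene and less of its RNA per cell cannot be told apart.

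**Figure D1:**
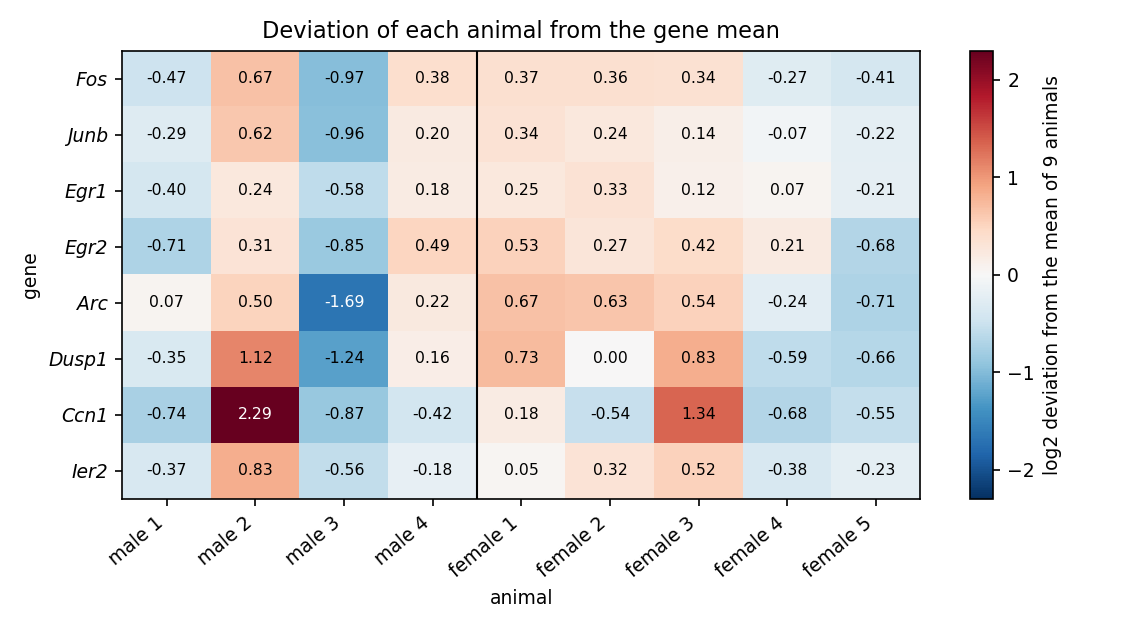
Log2 deviation of each animal (columns, 4 males left of the line and 5 females right of it) from the mean of 9 animals for the 8 tested genes (rows). Male 3 is negative in every row, down to -1.69 for Arc, and male 2 is positive in every row, up to 2.29 for Ccn1.

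Fos and Junb are the 2 members of the AP-1 family of leucine zipper transcription factors in the list. Fos (probe ILMN_1368356), located in assembly GRCr8 at chr6:110852188-110855054, read 7.01, 8.15, 6.51 and 7.86 in males 1 to 4. In females 1 to 5 it read 7.85, 7.84, 7.82, 7.21 and 7.07. The sexes overlapped fully, since the lowest and the highest of the 9 values were both from males, 3.11-fold apart on the linear scale. Junb (ILMN_1350784, chr19:40081126-40082910) read 8.49, 9.39, 7.82 and 8.98 in males and 9.12, 9.02, 8.91, 8.71 and 8.56 in females. Its order over the animals was close to that of Fos, again with male 3 lowest and male 2 highest, 2.98-fold apart.

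Egr1 and Egr2 encode zinc finger factors, Egr1 known for its link to synaptic plasticity and Egr2 also for its role in myelination and hindbrain development. Egr1 (ILMN_1369005, chr18:26737078-26740877) read 9.87, 10.51, 9.69 and 10.45 in males and 10.52, 10.60, 10.40, 10.34 and 10.06 in females. It had the smallest range of the tested members, 1.885-fold between male 3 and female 2. Egr2 (ILMN_1370369, chr20:21050149-21055201) read 8.48, 9.50, 8.35 and 9.69 in males and 9.73, 9.47, 9.62, 9.41 and 8.52 in females. Male 1, male 3 and female 5 lay from 8.35 to 8.52 and the other 6 animals from 9.41 to 9.73.

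Upstream sequence from RefSeq (GRCr8) was available for 7 of the 9 genes, all but Fos and Arc, and the 250 bases before the start site are considered. Egr1 and Egr2 had an r of 0.94 with each other, beside 0.96 between Fos and Junb. Any link of sequence to these values was not tested. Egr1 and Egr2 are shown because their windows share an arrangement of letters. In both, 1 CArG box starts 83 bases before the start site, and the letters CGTCA, the reverse strand of TGACG, the core of the cyclic AMP response element, start 66 bases before it. The following stretches run from base 87 to base 58 before the start site and have 22 of 30 letters in common, with the CArG box and the core in capitals. The Egr1 stretch is chr18:26736991-26737020 on the plus strand, and the Egr2 stretch is chr20:21054499-21054528 on the minus strand, before a start site that lies inside the annotated span of Egr2.
Egr1: cttcCCATATATGGccatgtaCGTCAcggc
Egr2: cagtCCATATATGGgcagcgaCGTCAcggg
Both strands were searched. A CArG box was found in 1.5% of 33469 upstream windows of the same length and in the windows of Egr1, which has 2, and Egr2 among the 7 genes. The core TGACG was found in 18.2% of all windows and in all 7 windows of these genes, with 4 matches for Nr4a1, 3 for Dusp1, 2 for Egr1 and Ier2 and 1 for Junb, Egr2 and Ccn1. A match is a description of letters, and whether a factor binds there was not measured.

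Nr4a1 (ILMN_1361354, chr7:134247153-134268044), an orphan nuclear receptor, was near background. It was above the bound in only 3 of the 9 animals and was not tested. Its values were 4.99, 5.20, 4.70 and 5.01 in males, with only male 2 above the bound, and 4.90, 4.92, 5.23, 5.19 and 5.04 in females, with only females 3 and 4 above it. The other orphan receptors of its family, which belong to a wider list of activity-induced genes, were above background on all 9 arrays and are named here after their values were seen. Nr4a2 ranged from 7.03 to 7.70 and Nr4a3 from 6.52 to 7.67.

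Arc (ILMN_2039673, chr7:108444959-108448413) encodes a protein that moves to active synapses and takes part in the removal of AMPA receptors. It read 9.32, 9.76, 7.57 and 9.48 in males and 9.93, 9.89, 9.80, 9.02 and 8.55 in females. Male 3 lay well below the next lowest animal, female 5, and the highest and the lowest value were 5.135-fold apart. Its raw intensity in male 3 was 196, well over the bound of 47.3 on that array, against 405 to 1215 in the other animals.

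Dusp1 encodes a phosphatase that switches off MAP kinases, and so acts as feedback on the signal that induces it. Its probe (ILMN_1367486, chr10:17184853-17187646) read 10.29, 11.75, 9.39 and 10.79 in males and 11.37, 10.64, 11.46, 10.05 and 9.98 in females. The 3 highest animals were male 2, female 3 and female 1, the animals apart on the first principal component, and male 3 was the lowest. Ccn1, also called Cyr61, encodes a secreted matrix protein known from blood vessels and wound repair. Its probe (ILMN_1372919, chr2:237222730-237225689) read 5.45, 8.48, 5.32 and 5.77 in males and 6.37, 5.65, 7.53, 5.51 and 5.64 in females. Male 2 and female 3 stood far above the rest, female 1 followed, and the other 6 animals lay between 5.32 and 5.77, close to background. Its raw intensity was 357 in male 2, 175 in female 3 and 118 in female 1, against 53.6 to 66.8 in the others. Ier2, a small nuclear protein, was read by ILMN_1352529 (chr19:40399373-40400897) at 5.91, 7.11, 5.72 and 6.10 in males and 6.33, 6.60, 6.80, 5.90 and 6.05 in females. Male 2 and female 3 were again highest. For dim probes such as these, background in the signal makes folds smaller than the change in RNA.

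**Figure D2:**
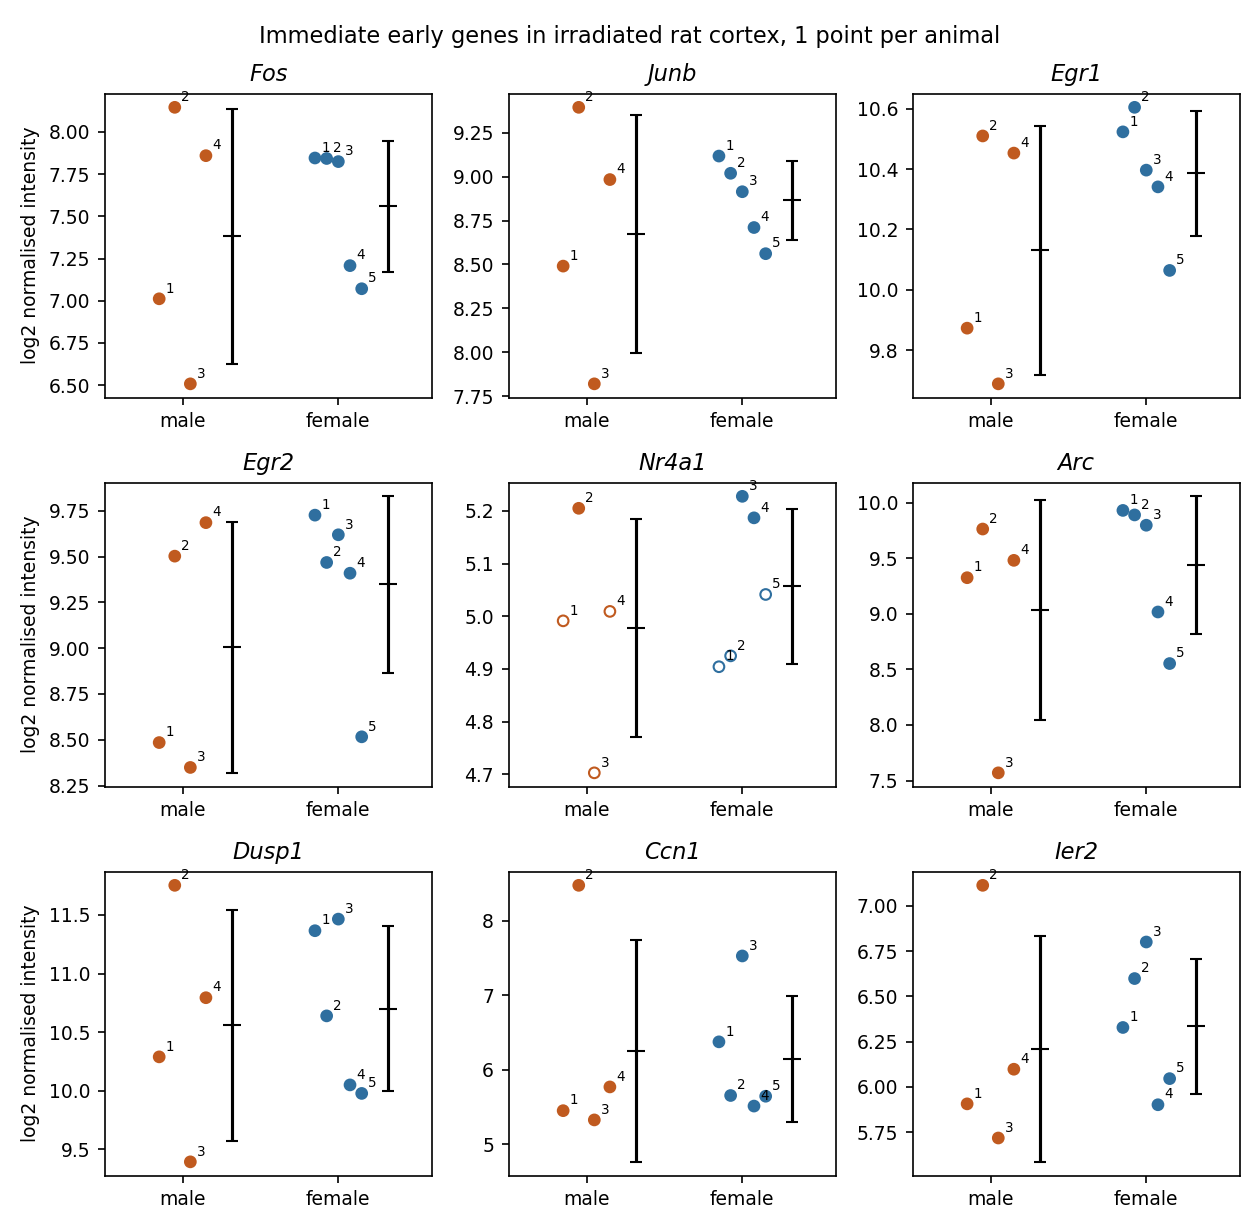
Log2 normalised intensity of the 9 genes with a probe (panels), with 1 point per animal numbered by replicate, males left and females right. Bars beside the points are mean and SD, and open points are at or below the background bound, which occurs in Nr4a1 only. In every panel the lowest point is a male, male 3.

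The full cyclic AMP response element TGACGTCA, which contains the core on both strands, was found in 1.59% of all upstream windows and in 2 of the 7 windows of these genes, those of Dusp1 and Ier2. They are shown because they hold the full element. Both genes were highest in male 2 and female 3, and any part of the element in that was not tested. Each line gives the 250 bases before the start site on the plus strand, with the full element and any further TGACG in capitals. The Dusp1 window is chr10:17184603-17184852, with the full element 124 bases before the start site, and the Ier2 window is chr19:40399123-40399372, with it 66 bases before.
Dusp1: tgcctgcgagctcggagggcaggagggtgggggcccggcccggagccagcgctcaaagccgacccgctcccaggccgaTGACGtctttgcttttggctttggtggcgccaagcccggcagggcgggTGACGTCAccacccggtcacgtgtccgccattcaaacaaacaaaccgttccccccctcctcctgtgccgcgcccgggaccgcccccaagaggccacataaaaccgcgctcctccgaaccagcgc
Ier2: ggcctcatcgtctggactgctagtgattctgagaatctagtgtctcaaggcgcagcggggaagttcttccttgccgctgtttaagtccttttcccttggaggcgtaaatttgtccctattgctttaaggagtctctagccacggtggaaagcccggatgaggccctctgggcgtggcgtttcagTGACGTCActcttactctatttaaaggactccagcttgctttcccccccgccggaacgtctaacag
Ccn1, whose highest values were in the same animals, holds no full element in its window.

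The spread between animals of the same sex was large. The SD within sex was 1.17 for Ccn1, 0.84 for Dusp1, 0.80 for Arc, 0.58 for Egr2, 0.57 for Fos, 0.50 for Ier2, 0.48 for Junb and 0.31 for Egr1. The median of the 8 genes was 0.58, beside a median of 0.17 over all probes tested. Of the 8 genes, 7 exceeded the 95th percentile of all probes, an SD of 0.35 that 5% of probes exceed, and Egr1 stood at the 92.3 percentile. Members were named with earlier results of these data known, so these ranks are given as a description. For the dim probes of Ccn1 and Ier2 the SD moved with the background handling. With no background correction it was 1.01 and 0.42, and with an offset of 50 it was 0.88 and 0.35. Leaving out the 3 animals apart left an SD of 0.17 for Ccn1, 0.29 for Ier2, 0.34 for Egr1, 0.44 for Junb, 0.56 for Dusp1 and Fos, 0.64 for Egr2 and 0.89 for Arc. Single animals carried part of the spread. Without male 3 the SD was 0.52 for Arc and 0.32 for Junb, and without male 2 it was 0.70 for Ccn1 and 0.32 for Ier2.

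**Figure D3:**
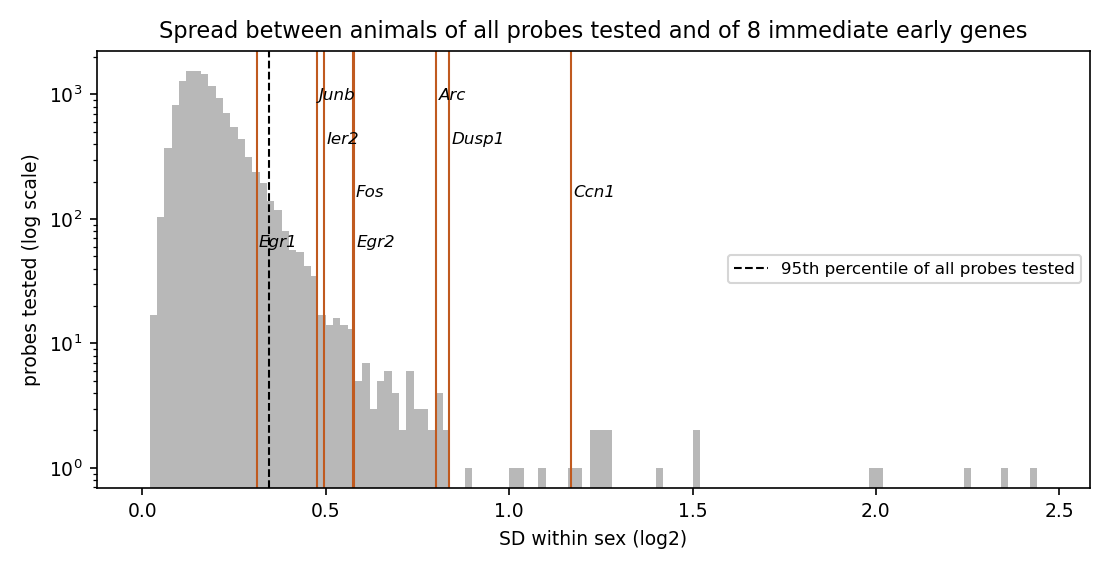
Number of probes tested (log scale) by SD within sex on the log2 scale, with the 8 genes as vertical lines and the 95th percentile of all probes dashed. All lines but that of Egr1 lie right of the dashed line at 0.35.

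Whether the genes varied together was asked with Fos, the classical member, as the yardstick. Pearson's r with Fos over the 9 animals was 0.96 for Junb, 0.93 for Egr1, 0.92 for Dusp1, 0.90 for Arc, 0.89 for Egr2, 0.84 for Ier2 and 0.69 for Ccn1. Spearman's rho was 0.95, 0.85, 0.83, 0.70, 0.85, 0.78 and 0.87 in that order. Of these 7 genes, 6 had an r above 0.8, as 1.02% of all probes tested had, and the median r over all probes was -0.01. Nr4a1, near background, stood at an r of 0.52 and a rho of 0.32. In an exact permutation test over all 362880 pairings, two-sided, the unadjusted p was 1.93e-05 for Junb, 0.000218 for Egr1, 0.000482 for Dusp1, 0.000874 for Egr2, 0.00151 for Arc, 0.00473 for Ier2, 0.0333 for Ccn1 and 0.154 for Nr4a1. For rho the exact p ran from 0.000353 for Junb to 0.0433 for Arc among the 7 tested genes and was 0.410 for Nr4a1. All 7 tested genes thus had an unadjusted p under 0.05 for r with r above 0, where 4.66% of all probes did. Adjusted over all 12369 probes set against Fos, none passed, the adjusted p lying between 0.239 for Junb and 0.571 for Ccn1 in the exact permutation test, and 0% of all probes passed.

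The r values were also taken without the animals at the ends and within the title numbers. Without male 3 and male 1, the 2 animals farthest from the median of Fos, r with Fos was 0.94 for Junb, 0.90 for Arc, 0.89 for Dusp1, 0.83 for Egr1, 0.78 for Ier2, 0.75 for Egr2 and 0.66 for Ccn1, and -0.04 for Nr4a1. Without male 3 alone it ran from 0.69 for Ccn1 to 0.96 for Junb. After the mean of each title number was removed, it was 0.997 for Junb, 0.96 for Egr1, 0.94 for Dusp1, 0.90 for Egr2, 0.89 for Arc, 0.81 for Ier2 and 0.64 for Ccn1. Junb stayed closest to Fos in each of these settings. For Ccn1 the unadjusted exact permutation p was 0.0505 without male 3 and 0.122 with the title number removed. Values of Fos ran without a single break, with the widest gap, 0.62, between 4 animals up to 7.21 and 5 animals from 7.82, and the next widest 0.50.

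**Figure D4:**
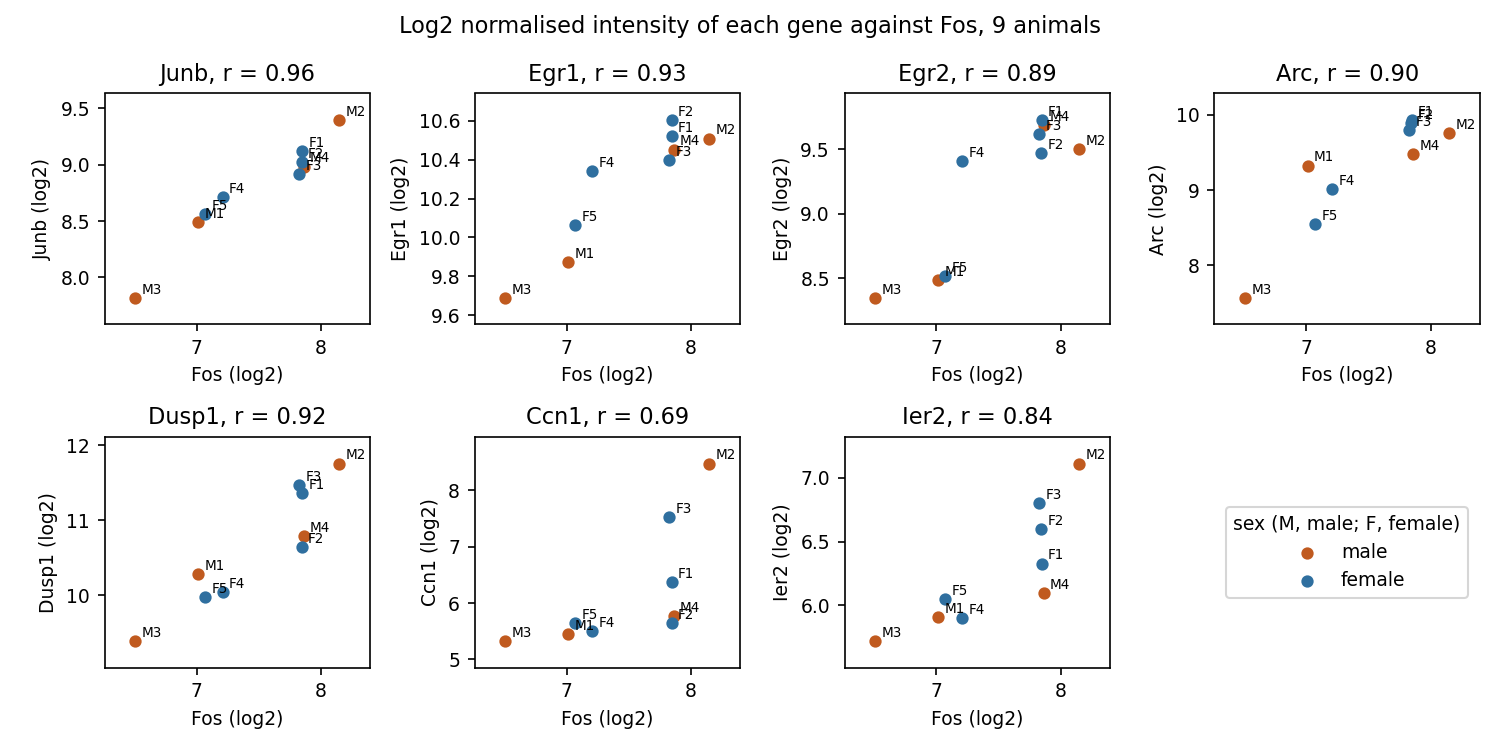
Log2 normalised intensity of 7 genes (vertical axes) against that of Fos (horizontal axis), with 1 point per animal labelled by sex and replicate. M3 is lowest on both axes in every panel. M2 and F3 lie far above the other animals for Ccn1, at 8.48 and 7.53.

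Pairs of these genes were set against each other by r, as a description. The only test given here is that of Ccn1 with Fos. Over all 28 pairs the median r was 0.84, from 0.49 between Egr1 and Ccn1 to 0.96 between Fos and Junb. Of the pairs, 57.1% exceeded 0.8, beside a median of 0.00 and 1.52% over all pairs of probes tested. Among Fos, Junb, Egr1, Egr2 and Arc, a group chosen after the values were seen, the median was 0.90, and 0.90 also without the 3 animals apart. Dusp1 correlated with Fos at 0.92 and with Junb at 0.89, as well as with Ier2 at 0.87 and Ccn1 at 0.85. The pair of Ccn1 and Ier2 had an r of 0.89 over the 9 animals and of 0.67 without the 3 apart. Ccn1 and Fos went the other way, at 0.69 over 9 animals and 0.88 without the 3. For the latter the unadjusted exact permutation p was 0.0264, where the smallest that 6 animals can give is 0.00139. In those 6 animals Ccn1 lay between 5.32 and 5.77, close to background, so this r rests on dim values. The 3 animals apart had means of 7.46 for Ccn1, 11.53 for Dusp1 and 6.75 for Ier2, against 5.56, 10.19 and 6.04 in the other 6. The part of whatever sets those arrays apart in the values of these genes was not tested.

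Between the sexes, the only groups that the labels give, no member differed beyond the spread between animals. Of the 8 genes, 7 were lower in males, as 49.1% of all probes were, with a median male minus female difference of -0.18, beside 0.00 over all probes. Arc averaged 9.03 ± 0.99 in males and 9.44 ± 0.62 in females (SD, n = 4 and 5), a difference of -0.40 ± 0.41 (SE) with a 95% interval from -1.29 to 0.49. Egr2 averaged 9.01 ± 0.69 in males and 9.35 ± 0.48 in females, a difference of -0.34 ± 0.30 with an interval from -0.99 to 0.31. Egr1 averaged 10.13 ± 0.41 in males and 10.39 ± 0.21 in females, and differed by -0.25 ± 0.17. Junb differed by -0.19 ± 0.25, Fos by -0.18 ± 0.30, Dusp1 by -0.14 ± 0.43 and Ier2 by -0.13 ± 0.26. Ccn1 alone was higher in males, at 6.25 ± 1.49 against 6.14 ± 0.85 in females, by 0.11 ± 0.59. In limma's moderated test 0 of 8 members were called, as 0% of all probes were, each member at an adjusted p of 1. At an unadjusted p under 0.05 there were also 0 of 8, beside 1.93% of all probes. The lower ends of the intervals reached -1.29 for Arc, -1.17 for Ccn1 and -1.07 for Dusp1, so differences of that size lay within the intervals.

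For 5 of the genes the direction turned without male 3. Without that animal Fos, Junb, Arc, Dusp1 and Ier2 were higher in males, by 0.11, 0.09, 0.09, 0.25 and 0.04, and Egr1 and Egr2 lower, by -0.11 and -0.12. Without male 2, at the other end, Ccn1 stood at -0.63, Dusp1 at -0.54 and Fos, Junb and Ier2 at -0.43 each. Within the first title number the difference was negative for Fos, Junb, Egr1, Egr2, Arc and Dusp1, from -0.73 to -0.17, and 0.59 for Ccn1 and 0.18 for Ier2. Within the second it was negative for all 8, from -1.32 for Arc to -0.43 for Egr1. The third holds females only. With the title number as a block all 8 genes were lower in males, by -0.95 for Arc, -0.71 for Dusp1, -0.61 for Egr2, -0.50 for Fos, -0.41 for Junb, -0.40 for Ier2 and -0.39 for Egr1 and Ccn1. None was called in limma, with adjusted p from 0.847 to 0.942.

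**Figure D5:**
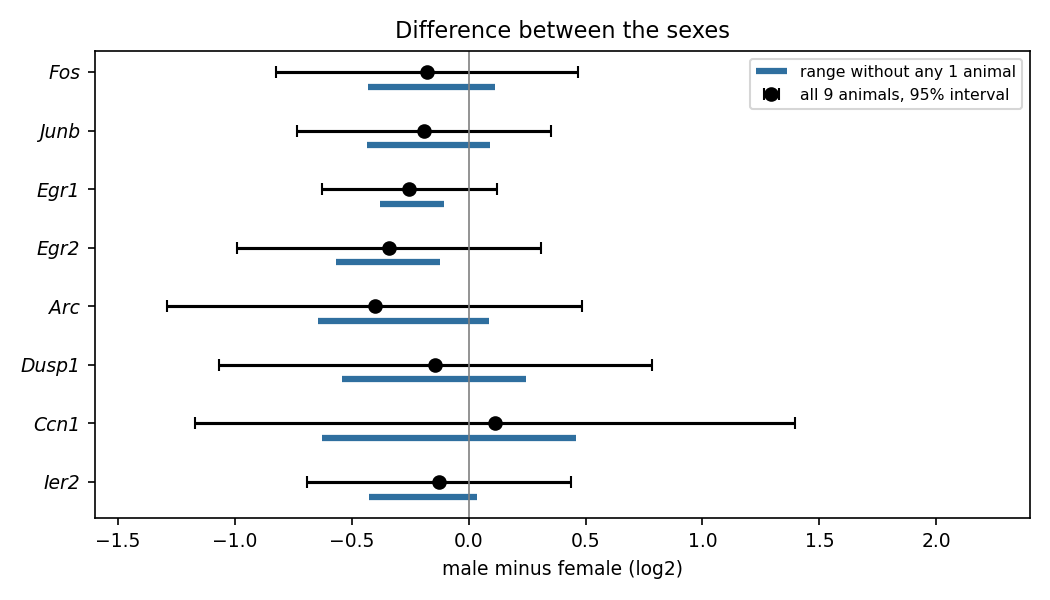
Male minus female difference on the log2 scale for the 8 genes, as points with 95% intervals from limma over all 9 animals. The thick bars below span the differences without any 1 animal, and they cross 0 for Fos, Junb, Arc, Dusp1, Ccn1 and Ier2.

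The title numbers were compared because they may mark litters or batches, which the labels do not say. Dusp1 averaged 11.14 ± 0.76 under the first, 10.57 ± 0.86 under the second and 10.01 ± 0.05 under the third (SD, n = 3, 4 and 2). Arc averaged 9.67 ± 0.31, 9.18 ± 1.09 and 8.78 ± 0.33 in the same order. In an F test by limma, sex being a covariate, 0 of 8 members passed, as 0% of all probes did, with adjusted p between 0.540 for Arc and Dusp1 and 0.776 for Egr1. An unadjusted p under 0.05 was found for 2 of 8, Arc at an adjusted p of 0.540 in limma and Dusp1 likewise, beside 9.22% of all probes. In all 8 genes the mean was lowest under the third, whose 2 animals are both females, though for Junb only at 8.64 against 8.68 under the second. The share of all probes with their lowest mean there was not counted. Since the 8 genes varied together, they are not 8 separate observations.

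The wider programme of activity-induced genes was measured beside these genes. Of 52 further immediate early and activity-induced genes listed, 39 had a named probe and 36 were tested. None differed between the sexes in limma at an adjusted p of 0.05, and their median male minus female difference was -0.06. Male 3 had the lowest value in 14 of the 36, beside 9.14% of all probes. An r with Fos above 0 at an unadjusted exact permutation p under 0.05 was found for 14 of the 36, beside 4.66% of all probes. The median r with Fos of the 36 was 0.56, and 9 of 36 exceeded 0.8, beside 1.02% of all probes, but none passed at an adjusted p of 0.05. The 4 with the largest SD within sex were Sgk1, Egr4, Klf2 and Sik1. Sgk1, a kinase that governs ion channels and also responds to glucocorticoids, ranged from 9.60 in male 3 to 11.57 in female 2 around a median of 10.91, with an r with Fos of 0.70. Egr4, another zinc finger factor of the Egr family, ranged from 6.70 in male 3 to 8.16 in male 4 around 7.26, and its r with Fos was 0.60, with an unadjusted exact permutation p of 0.0911. Klf2, a factor known from endothelium, ranged from 5.56 in male 3 to 7.05 in male 2 around 6.22, and its r with Fos was 0.86. Sik1, a kinase induced by cyclic AMP that restrains CREB coactivators, ranged from 6.70 in male 3 to 7.93 in female 3 around 7.51, with an r of 0.93. Jun, the main partner of Fos in AP-1, named after its values were seen, had an r of -0.05 and lay between 6.81 in female 1 and 7.29 in female 4.

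The kinases and factors that act upstream did not share the pattern as a list. Of 34 listed, 20 were tested, and their median r with Fos was 0.07, none above 0.8. At an unadjusted exact permutation p under 0.05, 1 of the 20, Camk2a, went with Fos, beside 4.66% of all probes. Crtc2, Ppp3cb and Camkk1, named after their values were seen, went against it, with r of -0.84, -0.77 and -0.67. The share of all probes that went against Fos was not counted, and after adjustment 0 of the 20 passed. Their median male minus female difference was -0.04, and 0 were called between the sexes in limma. Male 3 had the lowest value in 3 of the 20, beside 9.14% of all probes. The 4 with the largest SD were the calcium-activated kinases Camkk2, Camk2a and Camk4 and the catalytic subunit of protein kinase A, Prkaca. Camkk2 ranged from 5.71 in male 1 to 8.06 in female 2, Camk2a from 7.15 in male 3 to 8.32 in female 1, Camk4 from 6.57 in female 1 to 7.33 in female 4 and Prkaca from 9.61 in female 3 to 10.30 in female 5. Srf itself, also named after its values were seen, lay between 9.41 and 9.66, an SD within sex of 0.06. Of 15 genes of RNA decay and feedback, 14 were tested, with a median difference of 0.06, a median r with Fos of 0.33, none above 0.8 and 0 called between the sexes in limma. Their widest spreads were those of Nab1, a repressor of Egr factors, from 5.07 to 6.25, the MAP kinase phosphatases Dusp7, from 5.41 to 6.20, and Dusp3, from 9.19 to 9.93, and the receptor kinase inhibitor Spry2, from 6.68 to 7.51.

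Outside the 8 genes, those whose values most resembled the members' mean deviation over the 9 animals, among 8569 named genes tested, were Ppm1d, Sik1, Rabgap1, Smndc1, Lrrtm3 and Klf13. Their r with that mean was 0.97, 0.96, 0.95, 0.95, 0.94 and 0.94, and without the 3 animals apart 0.97, 0.94, 0.96, 0.87, 0.91 and 0.92. Ppm1d, a phosphatase of the p53 pathway, ranged from 5.95 in male 3 to 6.72 in male 2, and Lrrtm3, a synaptic adhesion protein, from 7.74 in male 3 to 8.34 in male 2. In all 6, male 3 was the lowest animal, which the choice of these genes made likely, since the members' mean deviation was itself lowest in male 3.

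Other lists were measured because they could move with these genes. Of 12 glucocorticoid-responsive genes, of which Sgk1 and Per1 also stand in the activity list, 10 were tested. Male 3 had the lowest value in 8 of them, beside 9.14% of all probes. The mean deviation of the 10 was -0.53 in male 3, against -0.09 to 0.26 in the other 8 animals, and their median r with Fos was 0.68. The other 2, named after their values were seen, were Fkbp5 and Mt1. Fkbp5 had an r with Fos of -0.34 and was lowest in male 2, and Mt1 had an r of -0.65 and was highest in male 3. The medians of r with Fos were 0.08 for the 9 tested genes of glutamatergic neurons, 0.04 for 5 of endothelium, 0.04 for 12 of meninges and fibroblasts and 0.09 for 6 of choroid plexus. They were -0.30 for 11 of striatum, -0.29 for 4 of hippocampus and -0.10 for 10 of microglia. Single animals stood out in some of these lists. Of 12 choroid plexus genes with a named probe 6 were tested, and their mean deviation was 1.43 in female 1, against -0.55 to 0.47 in the others. The 2 with the widest spread, named after their values were seen, were Ttr and Sostdc1, the latter above background on only 4 arrays. They read 12.01 and 7.89 in female 1, around medians of 6.34 and 4.90. The mean deviation of the striatal genes was spread over the animals, from -0.469 in male 2 to 0.455 in female 5 and 0.57 in female 1. For meninges it was -0.76 in female 5, which was below the mean in all 8 immediate early genes, and 0.21 in male 3, which was too. None of these genes was called between the sexes in limma, and the list medians of male minus female ran from -0.25 for striatum to 0.18 for meninges. The endothelial list, set beside Ccn1 and Klf2, had 3 of 6 genes with a named probe above background on all arrays, and its summed linear level lay between 1262 and 1434 in males and between 1280 and 1565 in females. Its mean deviation was -0.03 in male 2, 0.04 in female 3 and 0.08 in female 1, where Ccn1 was high. The part of glucocorticoid signalling, handling or tissue composition in the variation of the immediate early genes was not tested.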

How the data were processed

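Cortex RNA from 9 rats (4 males and 5 females) was stored in RNAlater, extracted and labelled as biotin cRNA from 250 ng, per the labels' protocols. The authors deposited 1 file of linear intensity for each of 22517 probes per array, with no detection p-values, and a log2 value table of 15912 probes with its normalisation not given in the sources used here. Its columns have nearly equal quantiles, and it served as an alternative.

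Intensities were corrected with normexp (offset 16), quantile normalised and put on the log2 scale (limma 3.58.1, R 4.3.3). The background bound of an array was the 99th percentile of the 6605 probes left out of the value table, and the 12370 probes above it on at least 4 arrays were tested. The sexes were set against each other with the moderated test of limma, and title numbers with its F test, sex being a covariate. The test between the sexes was two-sided. The p-values of both were adjusted after Benjamini and Hochberg over all tested probes, with calls at 0.05. Correlations with Fos used exact permutation (Python 3.11.15, scipy 1.17.1). They were adjusted over all probes, where the plan had named the members alone. For single members the exact permutation p between sexes ran from 0.254 for Egr1 to 0.889 for Ccn1. Scripts were tested on simulated data.

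The members and lists were chosen with earlier results of these data known. Besides the members, the text names the 4 genes with the largest SD of each signalling list and the 6 most like the members' mean, and says where a gene was named after its values were seen. Probe genes come from the platform annotation, and positions and upstream sequence from RefSeq (GRCr8), matched by gene identifier for 9 of 9 genes. Replicate numbers follow accession order. The p-values of limma set differences against the spread between these animals, and those of r count pairings of the animals. The animals are not independent if a title number marks a litter. Alternatives were the background correction, offset, scaling, value table, probe filter, title number as a block, variance moderation, each animal left out and the 3 animals apart left out.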

Additional observations from a re-analysis of the deposited data

Results flagged for a closer look

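Among the 16 groups of values looked at, the 8 tested genes in each sex, 2 held an animal far from the rest by Dixon's criterion, and chance alone gives about 1 in 20. Ccn1 in males was highest in male 2, at 8.48, with a gap to the next male of 0.859 of the range of 4 animals. Egr2 in females was lowest in female 5, at 8.52, with a gap of 0.738 of the range of 5 animals. Male 2 was also 1 of the 3 animals apart on the first principal component, and female 5 was below the mean of all 8 genes. The part of either in these values was not tested.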

How the results depend on the processing

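No member was called between the sexes or between title numbers at an adjusted p of 0.05, under any alternative run. None was correlated with Fos at that threshold either, but several of these settings could hardly have given a call. Without the 3 animals apart 720 pairings exist, and within title numbers 288, few beside an adjustment over 12369 probes. Leaving out 1 animal also lowered the number of pairings, so the lack of calls with Fos is no sign of stability. Over 144 male minus female differences of single members, the lowest adjusted p in limma was 0.847 and 13 turned their sign, 2 of them other than by leaving out 1 animal. With the title number as a block all 8 were negative, from -0.95 for Arc to -0.39 for Egr1 and Ccn1. Ccn1 turned its sign there, and also, to -0.088, without male 2, female 1 and female 3. Without male 3, Fos stood at 0.11, Junb at 0.092, Arc at 0.086, Dusp1 at 0.25 and Ier2 at 0.038. Dusp1 stood at 0.02 without female 1 and at 0.05 without female 3. For Ccn1 the values were -0.63 with male 2 left out, -0.0092 with female 2, -0.045 with female 4 and -0.012 with female 5 left out. Leaving out 1 animal at a time, the difference ranged from -0.43 to 0.11 for Fos, -0.43 to 0.09 for Junb, -0.38 to -0.11 for Egr1, -0.57 to -0.12 for Egr2, -0.65 to 0.09 for Arc, -0.54 to 0.25 for Dusp1, -0.63 to 0.46 for Ccn1 and -0.43 to 0.04 for Ier2. The cause was not tested.

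Over all probes, 0 were called between the sexes, and 0 to 2 without 1 animal, with 2 without male 1 and 1 without male 4. Between title numbers 0 were called, 1 with no filter on dim probes, 2 without male 2, female 1 and female 3, and 0 to 3 without 1 animal, with 3 without female 2, 3 without female 5 and 1 without male 4. The median r between pairs of members ranged from 0.79 without male 3 to 0.86 without male 1. The replicate numbers follow accession order and pair no animals, so the title number was the block fitted. With 4 and 5 animals, values near background, as for Nr4a1 and most animals of Ccn1, limit what can be measured.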
